A study of Mus musculus with 6 samples.

Results

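Solute carriers (SLC) are membrane proteins that move small molecules across the plasma membrane and the membranes of organelles, and this account covers the SLC genes that BV2 cells expressed. A gene was taken when its symbol in the array's probe table was SLC, a number, a letter and a number, and when at least 1 of its probes had a deposited mean of 200 intensity units or more over all 6 arrays. Slc29a1, Slc29a2, Slc29a3 and Slc43a3, carriers of nucleosides and purine bases, were left out of the set. Of 323 SLC genes of this form among 17778 named genes, 164 passed and 159 did not. The set held 32 SLC25 genes, which encode carriers that sit mainly in the mitochondrial inner membrane, and 132 other SLC genes. Where a gene had several probes, the probe with the highest mean stood for it. At the edge of the threshold, Slc45a2, Slc22a4 and Slc12a3 had deposited means of 203.5, 203.7 and 204.5 units and were kept, while Slc1a7, Slc25a35 and Slc16a11 had 198.2, 197.8 and 195 units and were left out.

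RNA was measured on 6 single-colour mouse arrays, 2 per group, in BV2, a mouse microglial line that was immortalised. The groups were untreated control cells, cells given a lower dose of adenine and cells given a higher dose, each after 1 h. All groups were the same line in the same medium, without any transgene or deletion named in the labels. The dose labels conflict, with 20 and 80 µM in the titles and the protocol but 80 and 250 µM in the characteristics, so the groups are called lower and higher dose here. The design text speaks of separate cultures, but the labels do not say which arrays come from which culture, so p-values measure the spread between arrays, which may be technical. Values are quantile-normalised intensity units unless called deposited. Levels of different probes are not set against each other, because brightness depends on the probe.

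Each SLC family has its own substrates. SLC2 and SLC50 proteins pass sugars, SLC1, SLC6, SLC7 and SLC38 proteins pass amino acids and related molecules, SLC30 proteins export zinc from the cytosol and SLC39 proteins import it, and SLC25 proteins exchange nucleotides, phosphate, carboxylates and amino acids between mitochondria and cytosol. Microglia and macrophages are known to use such carriers for iron and copper handling in phagosomes, for cystine uptake, and for glucose and amino acid supply when activated.

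Of the array-wide facts that touch these genes, the higher-dose arrays stood apart. Over the probes above the median intensity, the Pearson correlation of log2 values was 0.983 between the 2 higher-dose arrays. It was 0.923 to 0.929 between them and the other 4, and 0.972 to 0.982 among control and lower-dose arrays. Of 10 listed microglial and macrophage markers 8 were measured, 7 of them with a quantile-normalised mean of 200 or more. The summed level of the 8 was 80315 to 85997 units on control arrays, 84896 to 92363 on lower-dose arrays and 130382 to 148058 on higher-dose arrays. Itgam, Aif1 and Fcer1g among them passed the test at the higher dose, all higher, while 3 of the 8 had negative changes. Of these, Csf1r read 8616 and 8017 units in higher-dose cells and 11944.5 and 11257 in control cells (log2 change -0.48, adjusted p = 0.202 in limma), and Ptprc and Cx3cr1 had log2 changes of -0.14 and -0.13. Cx3cr1 read 88.7 to 118.7 units on the 6 arrays. None of the 17 measured markers of astrocytes, neurons, oligodendrocytes, fibroblasts and endothelium passed in limma, beside 10.6% of all probes. Of the 17, 4 had an unadjusted p under 0.05, beside 29.1% of all probes. The endothelium sum, most of it Kdr, was 2449 to 2651 units on control arrays, 2980 to 2986 on lower-dose arrays and 1767 to 2061 on higher-dose arrays, so it lay apart from control at both doses, in opposite directions. At the higher dose the astrocyte and neuron sums were above control, at 315 to 357 units against 301 to 309 and 544 to 594 against 442 to 500, and those of fibroblasts and oligodendrocytes overlapped with control. The part of these marker shifts in the SLC results was not tested. All arrays were of the same line, so the marker sums describe listed genes and are not counts of other cell types. In RNA from whole cultures, a lower level per cell and fewer cells that express a gene cannot be told apart.

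At the higher dose, 13 of the 164 genes passed the test against control, 4 higher and 9 lower. Of the genes that passed, the higher ones were carriers of taurine and related amino acids (Slc6a13, Slc6a6), sugar (Slc50a1) and copper (Slc31a2). The 9 lower genes included 4 mitochondrial carriers (Slc25a36, Slc25a30, Slc25a39, Slc25a13), both a zinc exporter and a zinc importer (Slc30a5, Slc39a10), a folate carrier (Slc19a1), a lysosomal amino acid sensor (Slc38a9) and a sodium, potassium and chloride cotransporter (Slc12a2). The test was limma's moderated test on log2 values of all 26423 probes with Benjamini-Hochberg adjustment, and a gene passed at an adjusted p under 0.05. The members' shares were 2.44% higher and 5.49% lower, 7.93% in all, against 10.6% of all probes (5.55% higher and 5.06% lower) and 18.4% (9.95% higher and 8.42% lower) of the 11753 probes with a deposited mean of 200 or more. The share of SLC genes was thus below both backgrounds, except that its share of lower calls was close to that over all probes. An unadjusted p under 0.05 was found for 53 of the 164, beside 29.1% of all probes.

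Calls over the whole array depend on single arrays, and those of the SLC genes with them. In limma, without control array 1, higher-dose array 1 or higher-dose array 2 none of the 164 genes passed, although 40, 29 and 32 of the 164 had an unadjusted p under 0.05. Without control array 2 the only gene to pass was Slc12a5, which is described with the ion exchangers. Over all 26423 probes, where 1466 were higher and 1337 lower with all arrays, leaving out 1 of these 4 arrays gave 1 to 7 higher and 4 to 23 lower, so the loss was not particular to the SLC genes. Slc25a36, for one, kept a log2 change between -1.99 and -1.68 over the 16 alternatives run for it. Without either lower-dose array 2 were higher and 5 lower. With each array scaled to an equal median instead of quantile normalisation, 4 were higher and 17 lower. A count that does not use the fitted spread was larger: both higher-dose arrays lay above both control arrays for 51 genes (31.1%) and below both for 70 (42.7%), while the groups overlapped for 43. Among the probes with a deposited mean of 200 or more these shares were 34.4% and 41.0%, so the members' shares were close to the background. The threshold itself can select genes that differ: 151 members were at 200 units or more in every group mean, and of the 13 that were under it in some group 1, Slc25a30, passed the test.

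**Figure D1:**
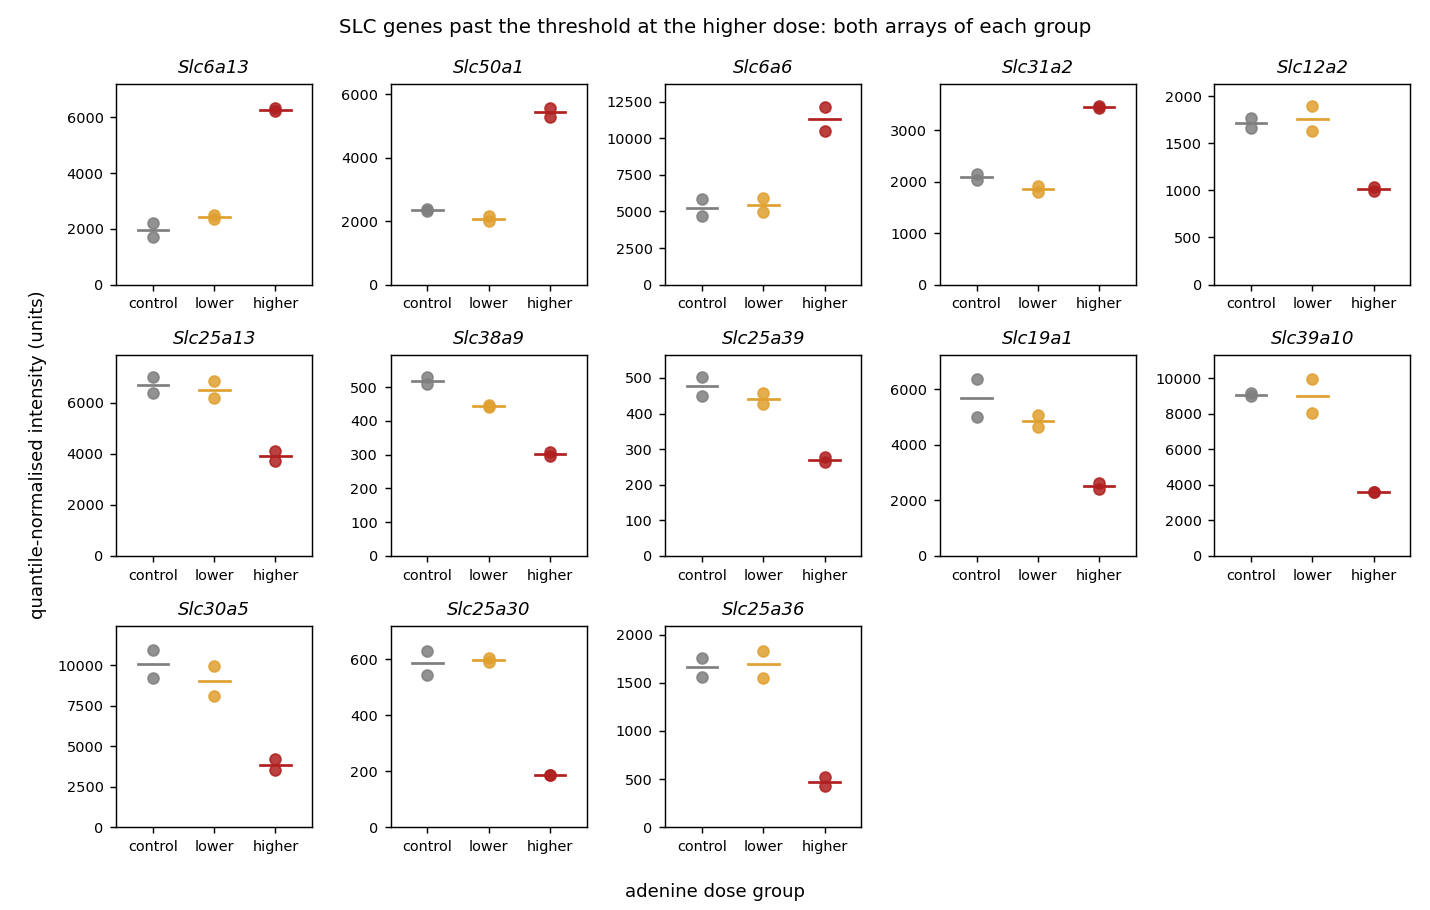
Quantile-normalised intensity of the 13 SLC genes that passed for the higher dose, in units on a linear axis from 0, for control, lower-dose and higher-dose cells. Points are single arrays and short lines group means (2 arrays each). In every panel both higher-dose points lie apart from the 4 others, above them in the first 4 panels and below them in the other 9.

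Among the genes that passed, the largest rise was in an amino acid carrier. Slc6a13, GAT2, which takes up GABA, taurine and betaine, read 1716 and 2216 units in control cells, 2365 and 2481.5 at the lower dose and 6227 and 6322 at the higher dose. The higher-dose arrays were above the 4 others, and the control and lower-dose arrays did not overlap either. Slc6a13 rose 3.22-fold against control (log2 change 1.69 ± 0.18, SE of the fit, adjusted p = 0.0199). Slc6a6, the main taurine transporter of the plasma membrane, read 5846 and 4668 units in control cells, 4972 and 5899 at the lower dose and 12116 and 10502 at the higher dose. Control and lower-dose arrays overlapped, and both higher-dose arrays were above them. Slc6a6 rose 2.16-fold against control (log2 change 1.11 ± 0.20, SE of the fit, adjusted p = 0.0335). Of the 8 SLC6 members, both of these passed, 6 had higher-dose arrays wholly above control, beside 34.4% of probes with a deposited mean of 200 or more, and the family's median change was 0.41 on the log2 scale, beside -0.01 over all probes. Slc6a12, another betaine and GABA carrier named here after its values were seen, went the other way: it read 2285 and 1960.0 units in higher-dose cells and 2761 and 2968 in control cells (log2 change -0.44, adjusted p = 0.254 in limma).

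The other amino acid carriers moved less. Slc38a9, a lysosomal membrane protein that senses arginine for the mTOR kinase complex, read 529.5 and 509 units in control cells, 440.5 and 448 at the lower dose and 296 and 307 at the higher dose. Its higher-dose arrays were the lowest of the 6, and the lower-dose arrays were below control as well. Slc38a9 fell 1.72-fold against control (log2 change -0.78 ± 0.14, SE of the fit, adjusted p = 0.0338). Its other probes had log2 changes of -1.99 and -0.44, also lower, with adjusted p of 0.0511 and 0.204. Slc7a5, which exchanges large neutral amino acids, read 3821 and 3769 units with the higher dose, compared with 2194 and 2178 in control cells (log2 change 0.80, adjusted p = 0.0544). Its partner chain Slc3a2 read 16576.5 and 16414 units at the higher dose and 19411 and 20184 in control cells (log2 change -0.26, adjusted p = 0.322). Neither passed: the Slc7a5 arrays of the groups were separate in the higher direction and those of Slc3a2 in the lower, and a dimmer Slc3a2 probe had a log2 change of 0.54 (adjusted p = 0.189).

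Slc7a11, the light chain that pairs with Slc3a2 to exchange cystine for glutamate, read 1046 and 965.5 units with the higher dose, compared with 1649.8 and 1232 in control cells (log2 change -0.50, adjusted p = 0.196). The glutamine carrier Slc1a5 read 7757.5 and 8969.5 units at the higher dose and 13313 and 16960.3 in control cells (log2 change -0.85, adjusted p = 0.0616). Both lay wholly below control at the higher dose without passing the test. Slc15a3, which moves peptides and histidine out of lysosomes, overlapped, with 7773 and 9103 units with the higher dose, compared with 6569.9 and 8856 in control cells. In all, 3 of 29 amino acid and peptide carriers passed, 2 higher (6.9%) and 1 lower (3.45%), beside 9.95% and 8.42% of probes with a deposited mean of 200 or more. Wholly above control were 11 (37.9%) and wholly below 10 (34.5%), beside 34.4% and 41.0% of such probes. The median log2 change of the 29 was -0.02.

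Sugar carriers held 1 call among 10 members (10.0%), beside 18.4% of probes with a deposited mean of 200 or more. Slc50a1, the mammalian SWEET protein, which lets sugars pass Golgi and plasma membranes, read 2369.8 and 2325 units in control cells, 2168 and 1988.5 at the lower dose and 5575.5 and 5292 at the higher dose. The 4 control and lower-dose arrays were within a narrow range and both higher-dose arrays were far above it. Slc50a1 rose 2.31-fold against control (log2 change 1.21 ± 0.15, SE of the fit, adjusted p = 0.0204). Slc2a1, GLUT1, the basal glucose transporter of most cells, read 3543 and 3691 units at the higher dose and 5885 and 5315 in control cells (log2 change -0.63, adjusted p = 0.0640). Slc2a6, a lysosomal member of the glucose transporter family, read 2240.3 and 2004 units with the higher dose, compared with 2981 and 2786 in control cells (adjusted p = 0.180). Both were below control on each array without passing, so the 10 members grouped with the sugar carriers by family number did not share a direction: 5 had positive and 5 negative changes. Among the 5 lactate and carboxylate carriers none passed in limma, beside 18.4% of probes with a deposited mean of 200 or more. Of the 5, 2 had an unadjusted p under 0.05, beside 29.1% of all probes. Slc16a3, which exports lactate, read 1687 and 1606 units at the higher dose and 1503 and 1153 in control cells (adjusted p = 0.362). Slc16a10, which passes aromatic amino acids, and Slc16a13 were wholly below control, with log2 changes of -0.46 and -0.65 and adjusted p of 0.131 and 0.0669. The other Slc16a10 probes differed in direction. A probe at 0.19 overlapped with control (adjusted p = 0.619 in limma), and a dimmer probe at -0.71 was wholly below it (adjusted p = 0.106). Slc16a1, another lactate carrier, was below the threshold of 200 units.

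Metal carriers moved in both directions. Slc30a5, ZnT5, which loads zinc into the Golgi and secretory pathway, read 10905 and 9197 units in control cells, 8103 and 9927 at the lower dose and 4196 and 3528 at the higher dose. Control and lower-dose arrays overlapped, and both higher-dose arrays were below them. Slc30a5 fell 2.6-fold against control (log2 change -1.38 ± 0.20, SE of the fit, adjusted p = 0.0242). Slc39a10, ZIP10, a zinc importer of the plasma membrane, read 9141 and 9001 units in control cells, 9957 and 8021.5 at the lower dose and 3572 and 3565.5 at the higher dose. The pattern was the same as for Slc30a5, with both higher-dose arrays nearly equal. Slc39a10 fell 2.54-fold against control (log2 change -1.35 ± 0.17, SE of the fit, adjusted p = 0.0204). Slc31a2, CTR2, a copper carrier of endosomes and lysosomes, read 2030.0 and 2150.5 units in control cells, 1922 and 1804 at the lower dose and 3438 and 3473 at the higher dose. Here the higher-dose arrays were above the 4 others. Slc31a2 rose 1.65-fold against control (log2 change 0.73 ± 0.14, SE of the fit, adjusted p = 0.0416).

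The remaining metal carriers did not pass against control. Slc39a1, the zinc importer ZIP1, read 1789 and 2558 units with the higher dose, compared with 808 and 941 in control cells (log2 change 1.29 ± 0.29, adjusted p = 0.0541). Slc39a6, the zinc importer ZIP6, read 12153.5 and 10264.5 units at the higher dose and 23121 and 17983 in control cells (log2 change -0.87, adjusted p = 0.0565). Both were separate from control, in opposite directions. Slc40a1, ferroportin, the iron exporter, read 3151 and 2707.5 units with the higher dose, compared with 4609 and 4190.3 in control cells (log2 change -0.59, adjusted p = 0.0838). Slc11a1, the phagosomal metal transporter NRAMP1, had a log2 change of -0.46 (adjusted p = 0.265), and Slc11a2, the iron importer DMT1, overlapped between the groups (-0.11 ± 0.34, adjusted p = 0.872). In all 22 metal carriers, 1 rose (4.55%) and 2 fell (9.09%), beside 9.95% and 8.42% of probes with a deposited mean of 200 or more. Wholly above control were 6 (27.3%) and wholly below 10 (45.5%), beside 34.4% and 41.0% of such probes. The median log2 change of the 22 was -0.15.

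Genes that handle the same metals without being SLC carriers stood on a wider list of SLC partners and regulators, of which 17 of 18 were measured. The list also held genes without a metal role, such as Bsg, so its counts are not counts of metal genes. Mt2, a metallothionein that binds zinc and copper, rose to 24180 and 23456 units at the higher dose, against 7412 and 8342 units in control cells (log2 change 1.60, adjusted p = 0.0204 in limma). Ftl1, the light chain of the iron store ferritin, read 415 and 439 units at the higher dose and 156 and 165 in control cells. It rose by 1.41 on the log2 scale (adjusted p = 0.0190). Tfrc, the transferrin receptor that takes up iron, fell by 0.70 (adjusted p = 0.0491). Bsg, the chaperone of lactate carriers, rose by 1.14 (adjusted p = 0.0242). These were 3 higher (17.6%) and 1 lower (5.88%) of 17, with a list median of 0.04. The shares were 5.55% and 5.06% of all probes, and 9.95% and 8.42% of probes with a deposited mean of 200 or more. The list's other metal genes, Mt1, Fth1, Mtf1 and Trf, did not pass, with log2 changes of 0.20, 0.07, 0.04 and -0.69. Mt1 and Fth1 were near the highest deposited value on both higher-dose arrays.

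**Figure D2:**
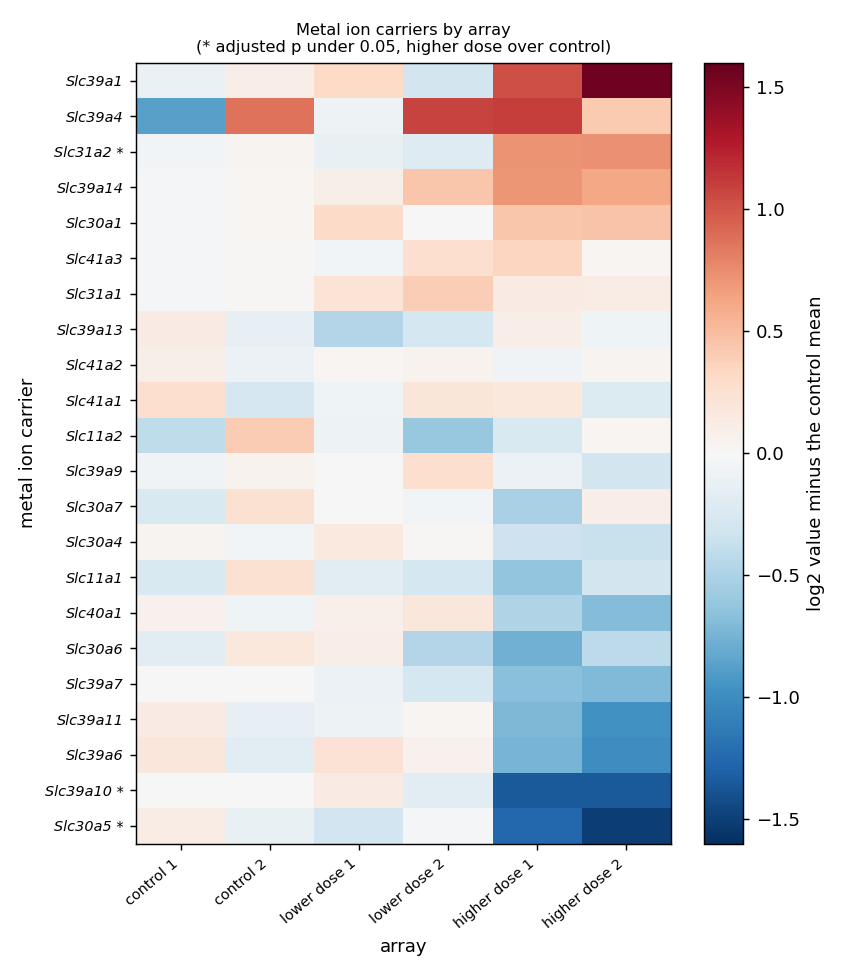
Colour map of the 22 metal ion carriers (down the page, highest change at the top) on each of the 6 arrays, as log2 value minus the mean of the 2 control arrays. Red is above and blue below control, and the named genes with an asterisk had an adjusted p under 0.05 at the higher dose. Slc31a2 is above and Slc39a10 and Slc30a5 are below control on both higher-dose arrays, while Slc39a4 and Slc11a2 differ between the control arrays themselves.

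The RefSeq promoter table of assembly GRCm38.p6 held 125 of the 164 members, and the 250 bases before each start were searched on both strands for short motifs. The sequences of Slc30a5 and Slc31a2 are shown because these metal carriers moved in opposite directions and both hold the core of the metal response element, the site of the zinc-sensing factor MTF1. Those of Slc25a36 and Slc25a13, described further on, are shown because both fell and both hold the E-box CACGTG. Slc25a30 and Slc25a39, which fell too, hold no E-box. The zinc importer Slc39a10, which also fell, holds no metal response core, while the mitochondrial carrier Slc25a39 holds 3. The sequences shown were thus picked by outcome and motif. Each is written 5′ to 3′ on the gene's strand, ending at the base before the start, and capitals mark the motif matches. They lie at chr13:100833428-100833677 (minus strand), chr4:62286179-62286428 (plus strand), chr9:97111042-97111291 (minus strand) and chr6:6217174-6217423 (minus strand).
Slc30a5: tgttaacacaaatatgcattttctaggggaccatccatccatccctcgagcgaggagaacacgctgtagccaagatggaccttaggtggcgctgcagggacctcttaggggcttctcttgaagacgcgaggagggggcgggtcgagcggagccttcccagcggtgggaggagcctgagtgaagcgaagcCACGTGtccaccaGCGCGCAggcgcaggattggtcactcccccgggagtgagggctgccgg
Slc31a2: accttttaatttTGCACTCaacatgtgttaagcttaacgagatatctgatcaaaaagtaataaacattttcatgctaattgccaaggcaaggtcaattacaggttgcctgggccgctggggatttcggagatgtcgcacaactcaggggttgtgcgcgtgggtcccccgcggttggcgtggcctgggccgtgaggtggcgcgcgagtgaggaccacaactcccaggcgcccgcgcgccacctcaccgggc
Slc25a36: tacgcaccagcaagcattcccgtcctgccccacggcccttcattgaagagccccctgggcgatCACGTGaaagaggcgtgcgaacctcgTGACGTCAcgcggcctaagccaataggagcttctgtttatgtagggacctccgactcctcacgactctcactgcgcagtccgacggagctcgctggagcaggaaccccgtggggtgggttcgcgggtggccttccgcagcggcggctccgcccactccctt
Slc25a13: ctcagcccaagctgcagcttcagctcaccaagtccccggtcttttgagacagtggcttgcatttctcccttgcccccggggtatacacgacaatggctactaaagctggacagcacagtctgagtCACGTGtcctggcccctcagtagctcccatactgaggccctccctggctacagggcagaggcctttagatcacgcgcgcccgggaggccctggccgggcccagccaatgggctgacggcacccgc

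The metal response element core was searched as TGCACNC or TGCGCNC, and 8 of 17 metal carriers with a promoter held it (47.1%), as did 33 of 125 members (26.4%) and 21.3% of all 27025 promoters. The E-box CACGTG occurred in 19 of 125 members (15.2%), in 6 of 26 SLC25 members (23.1%) and in 6.04% of all promoters. Slc25a36 also held the cAMP response element TGACGTCA, found in 1.6% of members and of all promoters, and Slc50a1 held the amino acid response element core TGATGNAA, found in 1.6% of members and 3.53% of all. The NRF1 motif, searched as a palindrome whose letters overlap the metal response core, was in 0.8% of members and 0.777% of all. Members' windows were richer in G and C, with a median of 60.8% against 52.0% for all. A match describes letters in a window and is not a measured binding site.

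Ion exchangers held a single call among 20 members (5.0%), beside 18.4% of probes with a deposited mean of 200 or more. Slc12a2, NKCC1, which brings sodium, potassium and chloride into the cell together, read 1764 and 1659.8 units in control cells, 1893 and 1627 at the lower dose and 1041 and 988 at the higher dose. The higher-dose arrays were the lowest of the 6. Slc12a2 fell 1.69-fold against control (log2 change -0.75 ± 0.16, SE of the fit, adjusted p = 0.0464). Slc26a6, an anion exchanger for chloride, bicarbonate and oxalate, read 325 and 296 units at the higher dose and 614 and 582 in control cells (log2 change -0.95, adjusted p = 0.0566). Its second, dimmer probe passed with a log2 change of -0.91 (adjusted p = 0.0432), so the probes shared a direction and lay on either side of the threshold. The widest fitted change of any member, 4.03 ± 2.63 for the potassium and chloride cotransporter Slc12a5, came from a control array at -2.33 units beside one at 354 units, with 325 and 290 units at the higher dose, and did not pass (adjusted p = 0.379). It passed only where the control array at 354 units was left out. Among the 20 members 8 were wholly above and 6 wholly below control, with a median log2 change of 0.26. In the same order, the shares were 34.4% and 41.0% among probes with a deposited mean of 200 or more.

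All 8 members of SLC17, SLC20 and SLC37, carriers of phosphate, sugar phosphates and sialic acid, had negative changes at the higher dose, from -0.78 to -0.17 on the log2 scale with a median of -0.46, and 6 of them were wholly below control, beside 41.0% of probes with a deposited mean of 200 or more. None passed in limma, beside 18.4% of such probes, and 4 had an unadjusted p under 0.05, beside 29.1% of all probes. Slc20a1, which takes up phosphate with sodium, read 11556 and 10063 units with the higher dose, compared with 18765.5 and 16166 in control cells (log2 change -0.69, adjusted p = 0.0643). Slc17a9, which loads ATP into vesicles, read 1937 and 1834 units at the higher dose and 2581 and 2816 in control cells (log2 change -0.52, adjusted p = 0.0916).

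Among 18 nucleotide sugar and acetyl-CoA carriers none passed against control in limma, beside 18.4% of probes with a deposited mean of 200 or more. Of the 18, 3 had an unadjusted p under 0.05, beside 29.1% of all probes. Separate from control were 3 above (16.7%) and 10 below (55.6%), beside 34.4% and 41.0% of probes with a deposited mean of 200 or more. The median log2 change was -0.18. Slc35f5, an SLC35 member whose substrate is not described here, read 587 and 429 units with the higher dose, compared with 1143 and 913 in control cells (log2 change -1.03, adjusted p = 0.0644). Slc35a3, which carries UDP-N-acetylglucosamine into the Golgi, had a log2 change of -0.56 (adjusted p = 0.110). Both were wholly below control.

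In the mixed group of vitamin, organic ion and lipid carriers, 1 of 20 passed (5.0%), beside 18.4% of probes with a deposited mean of 200 or more. Slc19a1, the reduced folate carrier, which also takes up cyclic dinucleotides, read 6389.7 and 5003 units in control cells, 4632 and 5072.5 at the lower dose and 2631 and 2414 at the higher dose. The higher-dose arrays were below the 4 others, and control array 1 was the highest. Slc19a1 fell 2.24-fold against control (log2 change -1.17 ± 0.19, SE of the fit, adjusted p = 0.0276). Slc22a21, a carnitine carrier of mouse, read 202 and 184 units at the higher dose and 359 and 291 in control cells (log2 change -0.75, adjusted p = 0.0596). The group's median log2 change was -0.17. Wholly above control were 4 (20.0%) and wholly below 11 (55.0%), beside 34.4% and 41.0% of probes with a deposited mean of 200 or more.

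**Figure D3:**
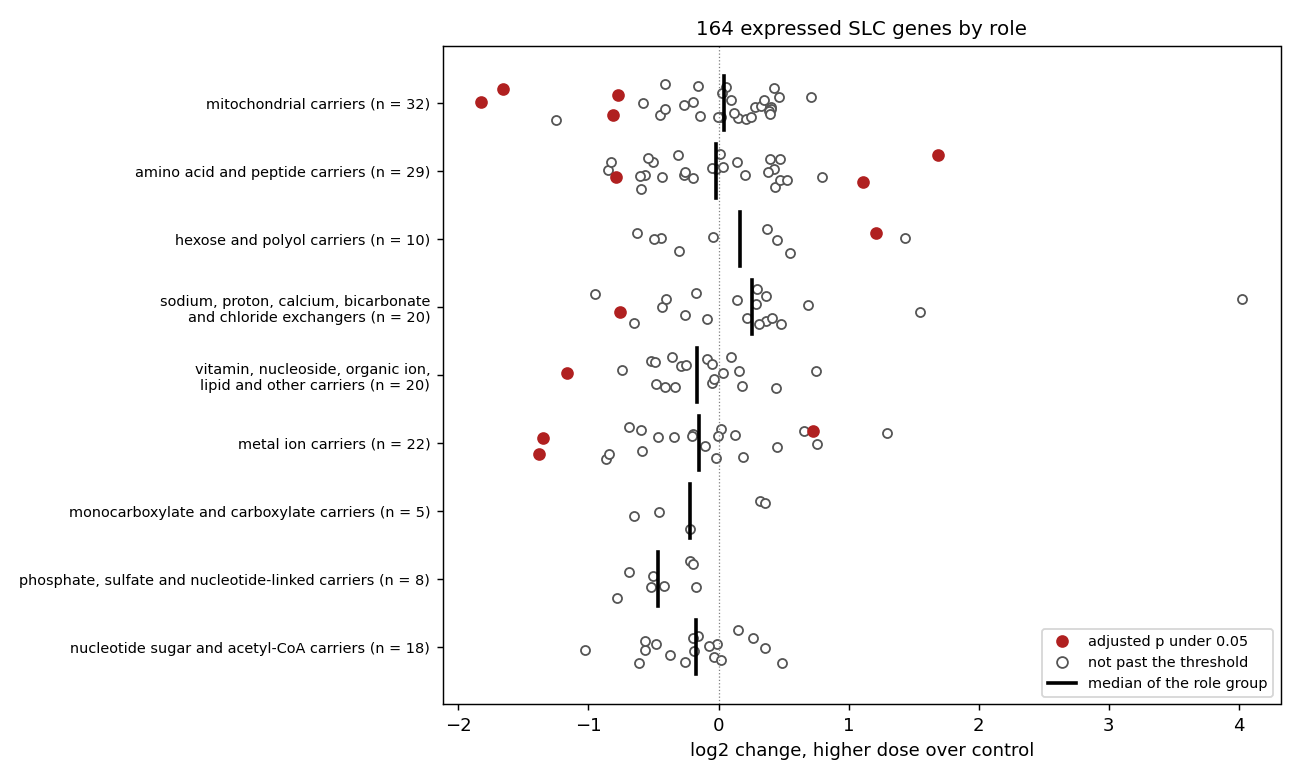
Log2 change at the higher dose over control for each of the 164 SLC genes (x axis), by role group (down the page, grouped by SLC family number). Filled points had an adjusted p under 0.05, open points did not, and black bars are group medians. The medians run from -0.46 for the phosphate group to 0.26 for the ion exchangers, and the open point at 4.03 is Slc12a5.

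The mitochondrial SLC25 carriers held 4 of the 9 lower calls and none of the higher ones. The 4 were 12.5% of the 32 SLC25 genes, beside lower calls for 5.06% of all probes and 8.42% of probes with a deposited mean of 200 or more. Slc25a36, which carries pyrimidine nucleotides into mitochondria, read 1762 and 1560.5 units in control cells, 1554 and 1827 at the lower dose and 518 and 422 at the higher dose. It had the lowest log2 change of all 164 genes, and both higher-dose arrays were far below the 4 others. Slc25a36 fell 3.55-fold against control (log2 change -1.83 ± 0.19, SE of the fit, adjusted p = 0.0197). Slc25a30, a carrier first described in kidney mitochondria, read 630.2 and 544.5 units in control cells, 602 and 589 at the lower dose and 185 and 186 at the higher dose. Its higher-dose arrays were nearly equal and the only ones below 200 units. Slc25a30 fell 3.16-fold against control (log2 change -1.66 ± 0.15, SE of the fit, adjusted p = 0.0186).

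The other pair of calls was smaller. Slc25a39, a carrier needed for glutathione import into mitochondria, read 451 and 502 units in control cells, 428 and 457 at the lower dose and 262.5 and 278 at the higher dose. Its higher-dose arrays were below the 4 others, which overlapped. Slc25a39 fell 1.76-fold against control (log2 change -0.81 ± 0.15, SE of the fit, adjusted p = 0.0367). Slc25a13, citrin, which exchanges aspartate for glutamate in the malate-aspartate shuttle, read 6992 and 6382 units in control cells, 6832 and 6189 at the lower dose and 4122 and 3705 at the higher dose. Control and lower-dose arrays overlapped here too, and the higher-dose arrays were below them. Slc25a13 fell 1.71-fold against control (log2 change -0.77 ± 0.16, SE of the fit, adjusted p = 0.0441). Slc25a32, which brings folate and FAD into mitochondria, read 176 and 277 units with the higher dose, compared with 444 and 619 in control cells, and did not pass (log2 change -1.25 ± 0.29, adjusted p = 0.0556).

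The carriers of the core energy exchange changed little. Slc25a4, the ADP and ATP exchanger ANT1, read 18790.5 and 17204 units at the higher dose and 17727 and 16041 in control cells (log2 change 0.09, adjusted p = 0.737). Slc25a3, the phosphate carrier of mitochondria, read 3721 and 3307 units with the higher dose, compared with 3044 and 2739 in control cells (log2 change 0.28, adjusted p = 0.368). Slc25a11, the oxoglutarate and malate exchanger, had a log2 change of 0.15 (adjusted p = 0.606). The groups overlapped for Slc25a4 and Slc25a11, and for Slc25a3 the higher-dose arrays were above control by less than the test's threshold required. Slc25a1, the citrate carrier, had 0.21 (adjusted p = 0.543), Slc25a20, which exchanges acylcarnitine for carnitine, 0.25 (adjusted p = 0.493), and Slc25a10, the dicarboxylate carrier, 0.05 (adjusted p = 0.876). The sign of the changes of Slc25a4 and Slc25a10 turned under other processing, as given with the alternatives. Slc25a5 was not among the named probes used here.

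Set beside the rest, SLC25 genes had a median log2 change of 0.04 at the higher dose and a range from -1.83 to 0.71, and the 132 other genes had a median of -0.13 and a range from -1.38 to 4.03, beside -0.01 over all probes and -0.06 over probes of 200 units or more. Of the 32 SLC25 genes 4 passed (12.5%), of the others 9 (6.82%), beside 10.6% of all probes and 18.4% of probes with a deposited mean of 200 or more. By array, the SLC25 median relative to the control mean was 0.0749 and 0.0476 at the higher dose, against 0.0675 and -0.0675 on the control arrays. Higher-dose array 1 was thus just above both control arrays, and higher-dose array 2 was between them. For the other genes it was -0.09 and -0.13 at the higher dose, against 0.01 and -0.01 on the control arrays. With equal medians the SLC25 median was -0.06 and that of the others -0.24, beside -0.08 over all probes, so the sign for SLC25 depends on the scaling. A single factor per array shifts the changes of both classes alike, so this scaling cannot show whether the medians' difference holds. With the trend on gene span removed, the medians were closer together, at -0.0099 and -0.097. These medians are descriptions of 6 arrays, and the difference between the classes was not tested.

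**Figure D4:**
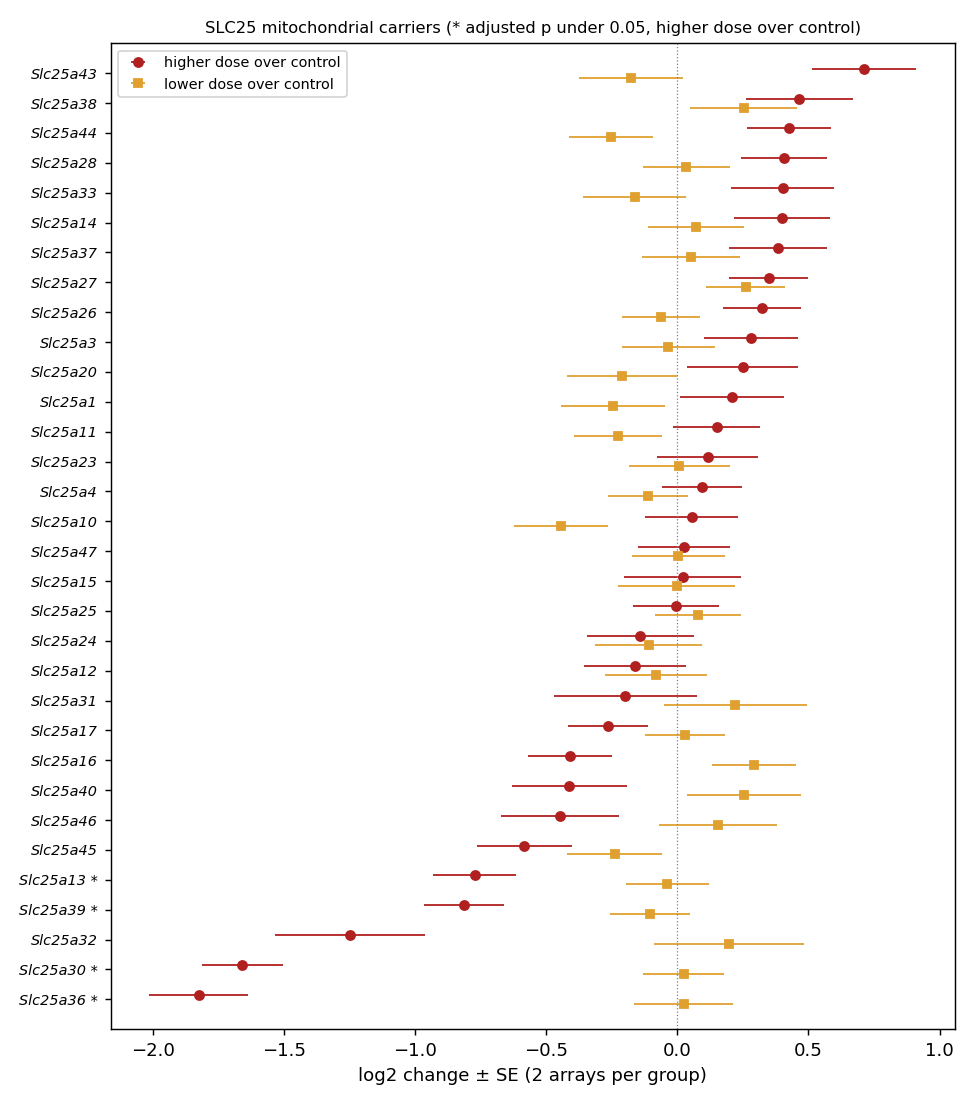
Log2 change of each of the 32 SLC25 genes, ordered by the change at the higher dose over control (red circles), with the lower dose over control (orange squares), and bars of 1 standard error of limma's fit (2 arrays per group). Genes with an asterisk had an adjusted p under 0.05 at the higher dose. Slc25a36 and Slc25a30 stand apart at the bottom in red, at -1.83 and -1.66, and are at 0.02 in orange.

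Mitochondrial genes outside the SLC names gave further context from lists of known members, to be read beside the 9.95% higher and 8.42% lower among probes with a deposited mean of 200 or more, and 5.55% and 5.06% among all probes. Of 16 inner-membrane carriers named otherwise 14 were measured, and 1 rose (7.14%) and 3 fell (21.4%) at the higher dose, with a median of -0.45. Mcu, the pore of the mitochondrial calcium uniporter, read 223 and 249 units in higher-dose cells and 559 and 692 in control cells (log2 change -1.40, adjusted p = 0.0206 in limma). Ucp2, an uncoupling protein, fell by 1.33, Mtch2 fell by 0.87 and Sfxn2, a sideroflexin, rose by 0.92. Of 26 import and outer membrane channel genes 21 were measured, 5 rose (23.8%) and 1 fell (4.76%), with a median of 0.20. The 5 were Timm8b, Timm10, Timm10b, Timm13 and Timm50, of which the small Tim proteins chaperone carriers such as the SLC25 family to the inner membrane. Not all such import genes rose. Timm9 overlapped with control (log2 change 0.20, adjusted p = 0.522 in limma), and Timm22 was wholly below it (-0.31, adjusted p = 0.417). Of the 21 genes, 13 had positive and 8 negative changes. Timm10b read 3074 and 2770 units in higher-dose cells and 997 and 914 in control cells (log2 change 1.61, adjusted p = 0.0186). Vdac1, the outer membrane channel, fell by 0.84 (adjusted p = 0.0430).

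Other transporter classes were counted the same way, beside the same shares. None of 25 measured ABC transporters passed at the higher dose in limma, and 5 had an unadjusted p under 0.05, beside 29.1% of all probes. Of the 25, 16 were wholly below control (64.0%, beside 41.0% of probes with a deposited mean of 200 or more), with a median of -0.33. These counts are descriptions of lists, and the lists' differences from all probes were not tested. Of 16 measured P-type pumps 3 fell (18.8%): Atp7a, a copper exporter, by 1.06, Atp2a2, a calcium pump of the endoplasmic reticulum, by 0.90, and Atp2b1, a calcium pump of the plasma membrane, by 0.73.

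At the lower dose no SLC gene passed against control in limma, beside 0.0114% of all probes, and 3 of 164 had an unadjusted p under 0.05, beside 6.36% of all probes. The lowest adjusted p was 0.764. Slc2a7, a sugar carrier, was at 191 and 244.5 units in lower-dose cells, against 74.7 and 148 in control cells (log2 change 1.04 ± 0.35). Slc12a9, an orphan relative of the chloride cotransporters, was at 601 and 697 units in lower-dose cells, against 949 and 850.4 in control cells (-0.47 ± 0.16). Slc19a2, a thiamine carrier, was at 1173 and 1299 units in lower-dose cells, against 811 and 949 in control cells (0.49 ± 0.17). Slc2a7 passed the threshold of 200 units only through the treated groups, with deposited means of 242.5 and 272 units at the lower and higher dose but 104 in control cells, so its place in the set is tied to its higher level there. These were the 3 with an unadjusted p under 0.05, and the arrays of the groups did not overlap for any of them. Next in order of p came Slc25a10, with 1927 and 1513 units in lower-dose cells, against 2312.5 and 2335 in control cells. A dimmer Slc25a10 probe went the other way, with 163.2 and 173.8 units in lower-dose cells, wholly above the 146.2 and 115.8 in control cells. Its log2 change was 0.37 (adjusted p = 0.767 in limma), so the probes of this gene did not share a direction. Slc45a2, a carrier of pigment cell melanosomes, had 199.5 and 243.5 units in lower-dose cells, against 161 and 174 in control cells, and it too passed the threshold only through the treated groups. Over all members 26 were wholly above and 32 wholly below control (15.9% and 19.5%), beside 19.1% and 16.3% of probes with a deposited mean of 200 or more. The median log2 change was -0.0005 for SLC25 and 0.0028 for the others. Slc12a5 was the only gene to pass when an array was left out, without control array 2 (adjusted p = 0.0390).

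Between the doses, 29 SLC genes passed, 7 higher and 22 lower at the higher dose (4.27% and 13.4%, 17.7% in all), beside 13.7% of all probes (6.78% higher and 6.95% lower) and 23.8% (12.1% higher and 11.7% lower) of probes with a deposited mean of 200 or more. An unadjusted p under 0.05 was found for 58, beside 32.1% of all probes. This comparison shares the higher-dose arrays with the one against control, so it is no independent repeat. With any 1 of the 6 arrays left out, none of the 164 passed in limma, and over all probes 1 to 5 were higher and 5 to 21 lower, while 35 to 56 SLC genes had an unadjusted p under 0.05. On the values as deposited the split was 3 higher and 25 lower, and the median of all probes was -0.25 there, against -0.0003 after quantile normalisation. Slc38a9, called against control, did not pass here (log2 change -0.56, adjusted p = 0.0594).

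The largest rises over the lower dose were those of Slc50a1 (log2 change 1.39), Slc6a13 (1.37), Slc39a1 (1.28), Slc6a6 (1.06) and Slc31a2 (0.89). Slc39a1 read 1789 and 2558 units with the higher dose, compared with 1088 and 711 at the lower dose (adjusted p = 0.0488). The largest falls were those of Slc25a36 (-1.85), Slc25a30 (-1.68), Slc25a32 (-1.45), Slc39a10 (-1.32) and Slc30a5 (-1.22). Slc25a32 read 176 and 277 units at the higher dose and 596 and 607 at the lower dose (adjusted p = 0.0365).

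Genes named next were chosen after their values were seen. In the SLC38 family of glutamine and alanine carriers, Slc38a1, Slc38a2 and Slc38a6 fell between the doses, with log2 changes of -0.76, -0.93 and -0.94. These were 3 of the family's 5 members, beside 6.95% of all probes and 11.7% of probes with a deposited mean of 200 or more. Slc38a7 went the other way and did not pass, with 996 and 989.5 units at the higher dose and 692 and 481 at the lower dose (log2 change 0.78, adjusted p = 0.0718), and Slc38a9, given before, did not pass either. Slc38a2 read 14492 and 11305 units in control cells, 14728 and 17693.5 in lower-dose cells and 8751 and 8156 in higher-dose cells. A second Slc38a6 probe also fell against control, by 1.74 (adjusted p = 0.0204), while the brighter probe that stood for the gene did not pass (-0.83, adjusted p = 0.0653). Zinc importers Slc39a6 and Slc39a11 fell by 1.02 and 0.82, the iron exporter Slc40a1 by 0.72 and the glucose transporter Slc2a1 by 0.75. Of 32 SLC25 genes 1 was higher (3.12%) and 6 lower (18.8%) between the doses, and of the 132 others 6 were higher (4.55%) and 16 lower (12.1%). The shares were 6.78% and 6.95% of all probes, and 12.1% and 11.7% of probes with a deposited mean of 200 or more.

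Gene length moved with the higher-dose changes over the whole array. Across 17744 named genes on these arrays, Spearman's rho between gene span and log2 change over control was -0.20, and it was -0.34 over the 9303 of them with a deposited mean of 200 or more. Across the 164 SLC genes it was -0.10, with median spans of 24.5 kb for SLC25 and 26.0 kb for the others. These are correlations across genes, which are not independent replicates, and their part in the SLC results was not tested. With each array's trend on gene span removed, 8 SLC genes were higher and 13 lower.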

How the data were processed

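The arrays were 1-colour Phalanx OneArray chips for mouse that took Cy5-labelled cDNA made from total RNA, per the labels' protocols. The authors deposited a linear intensity per probe, from -21 to 65489 units, with medians of 125 to 170 per array. The submitters' processing notes name RMA, which gives log values. Since these values are neither logged nor alike in median, they were handled as if no step had equalised the arrays. How they were scanned and background-corrected is not given in the sources used here. Only the number of arrays can be stated as a limit of precision.

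Values were quantile-normalised, set to at least 1 and taken to log2. All 6 arrays were fitted together with limma 3.58.1 in R 4.3.3 (a mean for each group and 3 residual degrees of freedom, with two-sided p-values adjusted by Benjamini-Hochberg over 26423 probes and read at 0.05). Adjusted p-values throughout are from this fit. Of the probes, 20377 had 1 symbol in the platform's annotation and 6046 none. Symbols were matched to a RefSeq table of GRCm38.p6 by symbol (18213) or synonym (2126), and 38 were kept as given. Groups came from the titles.

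Role groups follow the SLC family number, so a group can hold a member with another substrate. Members, lists and the rule for named genes were chosen with earlier results of these data known. The rule took the genes past the threshold, the 5 largest changes each way between the doses, the 5 smallest p at the lower dose, 2 per role group, the 5 brightest, those at the edge of the threshold and 20 fixed genes. Of the members, 20 had more than 1 probe. Of the 24 other probes 12 had the opposite sign, none of them past the threshold. Alternatives were the values as deposited, equal medians, a filter at the median intensity, log2(value + 16), a replicate block, array weights, a prior that follows intensity (trended), a fit to the compared groups alone, thresholds of 0.01 and 0.1, a mean over each gene's probes, removal of the trend with gene span, member thresholds of 100, 400 and none, and leaving out each array. Whether replicate numbers pair the arrays is not known. Same-numbered arrays of control and higher dose had deviations from their group means correlated at 0.17, and the other pairs of groups at -0.03 and -0.06. With 2 arrays per group the deviations mirror each other and each pair of groups gives a single value, so these values cannot settle it. The fit was tested on simulated data. With 2 arrays per group, a gene that did not pass is not shown to be unchanged. Figures were drawn with matplotlib 3.10.9 in Python 3.11.15.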

Additional observations from a re-analysis of the deposited data

How the results depend on the processing

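With 2 arrays per group the counts move with the estimate of the spread. Against the 4 higher and 9 lower SLC genes at the higher dose over control, a filter at the median intensity gave 15 and 34, log2(value + 16) 11 and 26, a trended prior 13 and 30, array weights 8 and 21, only the groups compared 2 and 5, removal of the span trend 8 higher, equal medians 17 lower, a threshold of 0.01 gave 0 and 0, and 0.1 gave 12 and 27. Leaving out 1 array gave 0 to 2 higher and 0 to 5 lower. Between the doses (7 higher, 22 lower), the filter gave 18 and 41, log2(value + 16) 13 higher, the trended prior 14 and 35, array weights 4 higher, only the groups compared 0 and 0, the values as deposited 3 higher, a threshold of 0.01 gave 0 and 0, and 0.1 gave 13 higher. Leaving out 1 array gave 0 and 0. At the lower dose over control, leaving out 1 array gave 0 to 1 higher and 0 lower, and every other alternative gave 0 and 0. The replicate block, whose numbers are not known to pair the arrays, gave 0 and 0 at the higher dose over control and 2 and 5 between the doses. In limma with that block, 47 members had an unadjusted p under 0.05 at the higher dose over control. The cause of these shifts was not tested, except that a filter leaves fewer probes to adjust over and leaving out an array leaves fewer arrays.

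The SLC25 median at the higher dose over control (0.04) was -0.064 with equal medians, -0.0099 without the span trend and 0.12 with no member threshold, and 0.03 to 0.08 when 1 array was left out. That of the other SLC genes (-0.13) was -0.16 as deposited, -0.24 with equal medians, -0.10 without the span trend, -0.087, -0.20 and -0.043 with member thresholds of 100, 400 and none, and -0.16 to -0.090 when 1 array was left out. At the lower dose the medians of SLC25 and the others were 0.17 and 0.19 as deposited and -0.082 and -0.058 with equal medians, beside 0.22 and -0.029 over all probes, and -0.057 to 0.009 and -0.042 to 0.036 when 1 array was left out. Between the doses they were -0.16 and -0.28 as deposited and the others' -0.036 without the span trend, and -0.027 to 0.17 and -0.14 to -0.081 when 1 array was left out.

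Among the genes named by the rule, at the higher dose over control, the sign turned for 7, none of which had passed. Members outside that rule were not checked singly. Slc25a4 was at -0.049 without the span trend. Slc25a10 was at -0.0099 as deposited, -0.084 with equal medians, -0.091 as the mean of its probes and -0.036 without the span trend. Slc3a2 was at 0.030 as deposited and 0.14 as the mean of its probes. Slc11a2 ran from -0.52 to 0.30 when 1 array was left out, with 0.30 without control array 2 and 0.027 without higher-dose array 1, and was at 0.0021 as the mean of its probes. Slc15a3 ran from -0.076 without control array 1 to 0.36 without control array 2, Slc22a4 was at 0.007 as deposited and 0.066 without the span trend, and Slc12a3 at -0.061 as the mean of its probes. Over all named genes and alternatives, 751 values kept direction and side of the threshold, 194 lost and 67 gained the threshold, and 14 turned sign. The block leaves every change as it is, since each number occurs once in each group, and moves only the errors.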

Other observations

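SLC genes under the threshold of 200 units gave fewer calls, as dimmer probes did over the whole array. Calls were 5.55% higher and 5.06% lower over all probes, against 9.95% and 8.42% of probes with a deposited mean of 200 or more. Of the 159 SLC genes under the threshold, 2 rose and 3 fell at the higher dose over control (1.26% and 1.89%). Their names were read after their values were seen. Higher were Slc7a7, a carrier of cationic amino acids, and Slc45a3. Lower were Slc22a5, the carnitine carrier, Slc43a2, a carrier of large neutral amino acids, and Slc36a2. Their log2 changes were 0.91, 0.78, -0.90, -0.82 and -1.68. At these dim levels 87 of 159 genes overlapped between higher-dose and control arrays, against 43 of 164 members. The overlap among all dim probes was not counted, so these counts do not set SLC genes apart from other dim probes.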
